A study of Homo sapiens with 6 samples.

Results

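The genes examined here were 10 markers of breast cancer stem cells and of pluripotency: CD44, CD24, PROM1, ALDH1A1, ALDH1A3, SOX2, KLF4, POU5F1, NANOG and MYC. They were listed by name as stemness genes that MUC1-C, the transmembrane subunit of the mucin MUC1, is said to drive. The rule used no measured value, but the list was drawn up with earlier results of these data known. All 10 had a row among the 37887 gene rows of the count table. Of these, 5 (CD44, CD24, ALDH1A3, KLF4 and MYC) passed the filter on low counts and were among the 15355 genes tested, and 5 (PROM1, ALDH1A1, SOX2, POU5F1 and NANOG) did not.

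RNA-seq was performed on MDA-MB-436, an established triple-negative breast cancer line with mutant BRCA1, in 2 groups of 3 libraries. All 6 libraries came from cells that stably carried a doxycycline-inducible shRNA vector against MUC1. Control cells received 0.1% DMSO as vehicle, and shMUC1 cells received 500 ng/ml doxycycline (DOX), which switches the shRNA on. The comparison asked which transcripts depend on MUC1. Titles of the control samples read as a control shRNA, but their treatment is given as DMSO and the design describes a single inducible line with vehicle, and that description was followed. The labels do not state the length of treatment or whether the cells are 1 clone, and they name no sorting or sphere culture. All column names hold the tag t8, whose meaning is not given in the sources used here. A library with DOX and a control shRNA was not analysed here, so DOX and MUC1 silencing cannot be told apart.

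Cancer stem cells are the tumor cells that can self-renew and seed new growth. In breast cancer they were first isolated by surface protein, as cells with high CD44, the receptor for hyaluronan, and low CD24, a small glycoprotein on a lipid anchor. High aldehyde dehydrogenase activity, carried mainly by ALDH1A1 and ALDH1A3, and the membrane glycoprotein CD133, encoded by PROM1, are also used as markers. The cells that these markers pick out need not be the same. POU5F1 (OCT4), SOX2, KLF4 and MYC are the transcription factors that together can return a somatic cell to pluripotency, and NANOG helps to hold the pluripotent state.

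The libraries held from 18678307 to 27825546 counts. Levels are given as counts per 1000000 counts (CPM), scaled by the TMM method, as mean ± SD of n = 3 libraries. MUC1 was at 4.24, 3.45 and 3.95 CPM in control libraries and at 2.60, 1.98 and 1.83 CPM in shMUC1 libraries, so the groups did not overlap. The log2 fold change of MUC1 was -0.84 (SE 0.214). Its adjusted p was 0.00119 in the quasi-likelihood test of edgeR, with adjustment over all tested genes by the Benjamini-Hochberg method. Because 48 exon bases of MUC1 also belong to AL713999.1, annotated in the same orientation, the MUC1 count is uncertain. The hormone receptor genes ESR1 and PGR had at most 12 counts in any library, and ERBB2 was at 44.7 ± 2.40 CPM in control cells. VIM, which encodes the mesenchymal filament protein vimentin, was at 717 ± 26.0 CPM in control cells and fell to 417 ± 25.2 CPM with a log2 fold change of -0.78. The near absence of ESR1 and PGR did not go against the triple-negative label.

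Silencing of MUC1 went with higher MYC and KLF4 transcripts and with lower CD44 transcripts. MYC rose by 33.5%, KLF4 rose by 15.8% and CD44 fell by 10.8%, each at an adjusted p under 0.05. ALDH1A3 and CD24 did not pass the test. Across all tested genes, 25.2% were higher and 23.6% were lower at that threshold, so 2 higher and 1 lower of 5 tested markers is near the share among all genes. None of the 5 tested markers also passed a fold change of over 2, which 5.95% of all tested genes did. Control and shMUC1 levels were fully separated for CD44, KLF4 and MYC, the 3 that passed, and overlapped for CD24 and ALDH1A3. Such separation was seen in 54.8% of all tested genes, so 3 of 5 is near that share too. These libraries measure whole cultures, in which fewer cells of a type and less RNA per cell cannot be told apart.

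**Figure D1:**
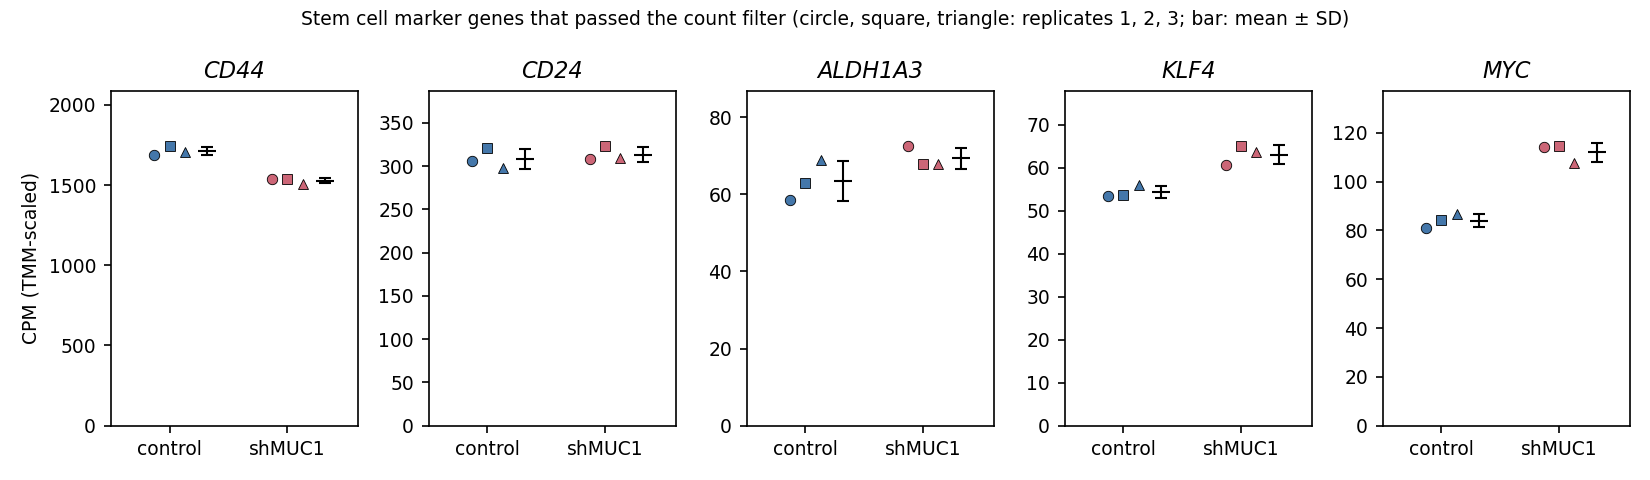
CPM of the 5 markers that passed the count filter, in each library (vertical axes start at 0; blue, control; red, shMUC1; bars, mean ± SD of 3 libraries). The shMUC1 libraries lay below every control library for CD44 and above every control library for KLF4 and MYC, and the groups overlapped for CD24 and ALDH1A3.

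**Figure D2:**
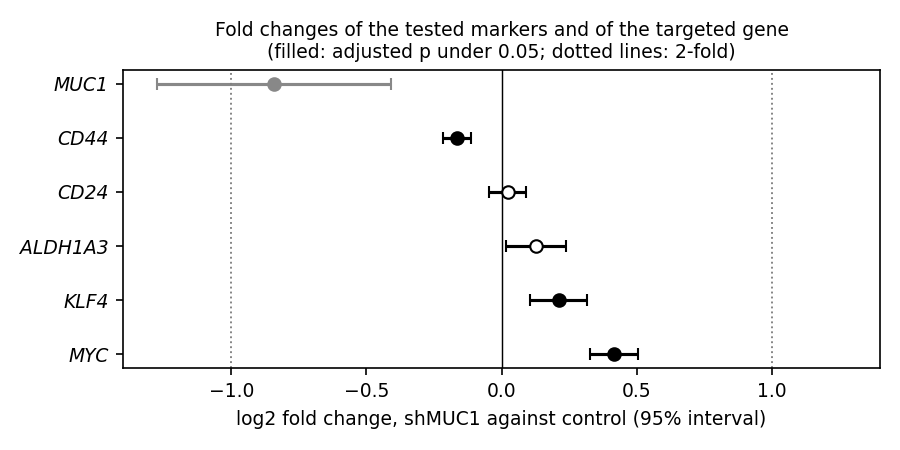
Log2 fold changes of the tested markers and of MUC1, shMUC1 against control, with unadjusted 95% intervals from the edgeR fit (filled, adjusted p under 0.05; dotted lines, a fold change of 2). Every marker lay well inside the dotted lines, from -0.16 for CD44 to 0.42 for MYC.

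CD44 also differed from the other markers in a short stretch of sequence. The word ATCAGTA had been linked to lower expression in an earlier scan of 3' untranslated regions (3' UTRs) of these same data, so its presence is no independent support for a direction. It was searched on the sense strand of the annotated 3' UTRs of GENCODE release 29 (GRCh38). Of the 10 markers, CD44 alone held it, in 4 of 11 transcripts with an annotated 3' UTR. MUC1, the targeted gene, held it in 2 of 26. Both sites are shown 5′ to 3′ on the transcript, with the word in capitals, as a description only. The CD44 site lies at chr11:35229928-35229957 on the plus strand, with the word starting at base 606 of the 3069-base 3' UTR of CD44-201. The MUC1 site lies at chr1:155187760-155187789 on the minus strand, with the word starting at base 141 of the 731-base 3' UTR of MUC1-213.
CD44 site: tcagtcctttgATCAGTAtaattttttaaa
MUC1 site: gacacagttcaATCAGTAtaaaacggaagc

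The word was in 14.4% of 13117 tested genes with an annotated 3' UTR. The median log2 fold change was -0.11 for genes with it and 0.03 for genes without it. Because the word was found in these same data, the gap between these medians is no independent support. The change in CD44 was not unusual among either: 45.0% of genes with the word and 29.2% of genes without it had a log2 fold change as low as that of CD44 or lower. A match describes the sequence only, and the part of the word in the fall of CD44 was not tested. The sequence of the shRNA was not used here.

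Among the surface markers, CD44 was the most abundant and the marker that fell. Its gene lies at chr11:35138870-35232402 on the plus strand. CD44 stood at 1687, 1742 and 1709 CPM in control libraries and at 1539.6, 1536 and 1510.1 CPM in shMUC1 libraries. All 3 shMUC1 libraries were low, and the spread within each group was small beside the gap between them. The level went from 1713 ± 27.7 to 1529 ± 16.2 CPM, with a log2 fold change of -0.16 (95% interval -0.22 to -0.11) with an edgeR adjusted p of 1.36e-06. CD44 shares 84 exon bases with CD44-AS1 on the opposite strand, which had 111 to 206 counts in the 6 libraries against at least 28115 for CD44. The counts are per gene and do not separate the standard form of CD44 from its variant-exon isoforms.

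CD24 lies at chr6:106969831-106975627 on the minus strand. It was at 306, 321 and 298 CPM in control libraries and at 308, 323 and 309 CPM in shMUC1 libraries, and the groups overlapped. The log2 fold change was 0.02 (95% interval -0.05 to 0.09), with an edgeR adjusted p of 0.604, so a change was not shown and the interval holds small changes in either direction. A pseudogene copy, CD24P4, had 17 to 33 counts against at least 5752 for CD24. How reads that match both were counted is not given in the sources used here.

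To compare CD44 with CD24, levels were divided by the merged exon length of each gene. On this scale CD44 stood at 171 ± 2.76 and CD24 at 99.6 ± 3.77 CPM per kb in control cells, higher than 99.2% and 98.0% of tested genes. The control libraries had CD44 to CD24 ratios of 1.71, 1.68 and 1.78, and the shMUC1 libraries had ratios of 1.55, 1.47 and 1.51. Every shMUC1 library had a lower ratio than every control library, and the mean went from 1.72 ± 0.0496 to 1.51 ± 0.0362. An exact two-sided permutation test over libraries gave p = 0.1, the smallest that 3 against 3 allows. With coding length in place of exon length the ratio was 1.95 ± 0.0563 in control and 1.72 ± 0.0411 in shMUC1 cells. A ratio of RNA over whole cultures is not the protein phenotype by which stem cells are sorted.

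**Figure D3:**
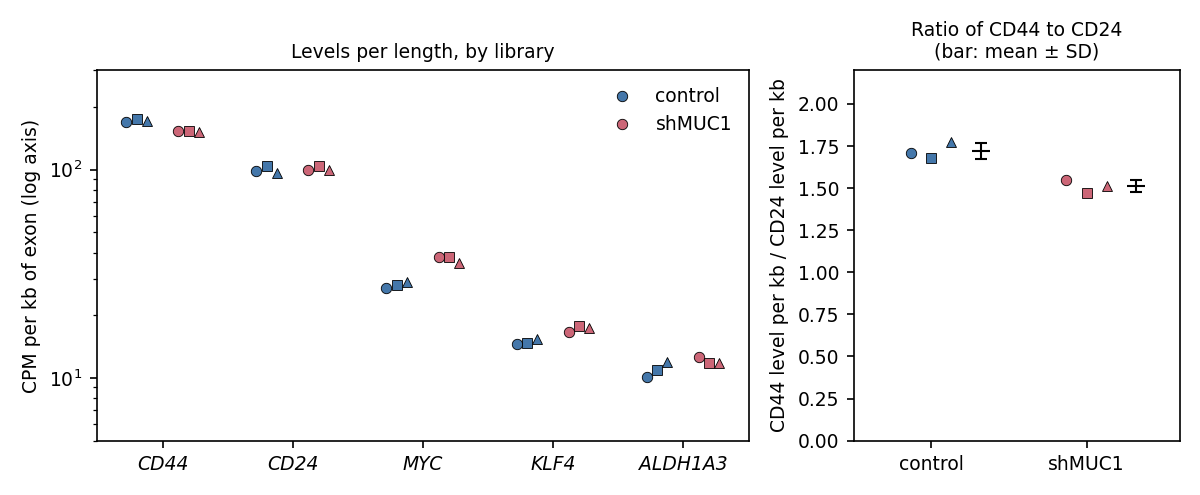
Left, levels of the 5 tested markers in CPM per kb of merged exon on a log axis, by library (blue, control; red, shMUC1). Right, the ratio of CD44 to CD24 on the same scale, with the axis from 0 and bars for mean ± SD of 3 libraries; the control libraries lay between 1.68 and 1.78 and the shMUC1 libraries between 1.47 and 1.55.

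The order of the tested markers per length was CD44, CD24, MYC, KLF4 and ALDH1A3 in each of the 6 libraries. Control levels were 28.0 ± 0.91 CPM per kb for MYC, 14.9 ± 0.396 for KLF4 and 10.98 ± 0.9 for ALDH1A3. No neighbours in this order overlapped in level across the libraries of a group.

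PROM1, the CD133 gene at chr4:15963076-16084378, was close to silent. The control libraries held 7, 0 and 4 PROM1 counts and the shMUC1 libraries held 3, 2 and 6, or 11 counts in each group. PROM1 shares 166 exon bases with FGFBP2 on the same strand. A change in PROM1 was not detectable at this depth. Its paralog PROM2 was also low, with a mean of 14 counts and a log2 fold change of -0.07 that did not pass the test.

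The aldehyde dehydrogenases ALDH1A1 and ALDH1A3 oxidize retinaldehyde to retinoic acid and underlie the flow assay for aldehyde dehydrogenase activity. Of the pair, ALDH1A3 carried nearly all counts in these cells. ALDH1A3, at chr15:100877714-100916626 on the plus strand, stood at 58.5, 62.8 and 68.9 CPM in control libraries and at 72.4, 67.8 and 67.7 CPM in shMUC1 libraries. Control replicate 3 lay above 2 of the shMUC1 libraries, so the groups overlapped. The level was 63.4 ± 5.20 CPM in control and 69.3 ± 2.68 CPM in shMUC1 cells, with a log2 fold change of 0.13 (95% interval 0.02 to 0.24) with an edgeR adjusted p of 0.0504, just short of the threshold. Single libraries decided this call. Without control replicate 3 the log2 fold change was 0.18 (edgeR adjusted p 0.00844), without shMUC1 replicate 3 it was 0.15 (edgeR adjusted p 0.0499), and without control replicate 1 it was 0.08 (edgeR adjusted p 0.306). ALDH1A3 also shares 63 exon bases with AC015712.5 in the same orientation and 1585 with AC015712.2 on the opposite strand.

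ALDH1A1, at chr9:72900662-73080442 on the minus strand, was counted 2, 2 and 0 times in the control libraries and 0 times in all 3 shMUC1 libraries. In the shallowest library 0 counts allow a level of up to 0.161 CPM. All values were under the floor of 3 counts, so a difference was not detectable at this depth and no ratio to ALDH1A3 was formed.

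KLF4 is a zinc finger factor that acts in pluripotency and in the differentiation of epithelia. Its gene lies at chr9:107484852-107490482 on the minus strand. KLF4 stood at 53.5, 53.7 and 56.1 CPM in control libraries and at 60.6, 65.0 and 63.6 CPM in shMUC1 libraries. The lowest shMUC1 library lay above the highest control library. The level went from 54.4 ± 1.45 to 63.1 ± 2.27 CPM, with a log2 fold change of 0.21 (95% interval 0.10 to 0.32) with an edgeR adjusted p of 0.000997. No other annotated gene shares exon bases with KLF4.

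MYC showed the largest change of the 5 tested markers. It encodes a basic helix-loop-helix factor that drives growth and ribosome synthesis, and its gene lies at chr8:127735434-127741434 on the plus strand. MYC stood at 81.2, 84.2 and 86.6 CPM in control libraries and at 114, 114 and 107 CPM in shMUC1 libraries. The groups were far apart beside their spread. The level went from 84.0 ± 2.73 to 112 ± 3.95 CPM, with a log2 fold change of 0.42 (95% interval 0.33 to 0.50) with an edgeR adjusted p of 3.26e-10.

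The core pluripotency factors were at or near 0 in both groups. SOX2, a high-mobility-group factor at chr3:181711924-181714436, was counted 8, 2 and 4 times in the control libraries and 0, 0 and 2 times in the shMUC1 libraries. The sums of 14 and 2 counts give a ratio of shMUC1 to control of 0.143, with an exact 95% interval of 0.0158 to 0.623 that covers counting error only and that would widen if both reads of a pair were counted. Fitted without the low-count filter, SOX2 had a log2 fold change of -2.53 (95% interval -5.40 to 0.34) with an edgeR adjusted p of 0.209. If each count is an independent read, the difference in SOX2 was larger than counting error taken alone. Every SOX2 count was even, as counts of both reads of a pair would be, and no interval was computed on halved counts. The difference did not pass the test that includes the spread between libraries. The overlapping transcript SOX2-OT had at most 6 counts in any library.

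POU5F1, which encodes OCT4, lies at chr6:31164337-31180731 on the minus strand and had 0 counts in all 6 libraries. NANOG, at chr12:7787794-7799141 on the plus strand, had 0 counts in 5 libraries and 1 count in shMUC1 replicate 3. Both genes have near-identical copies that could take reads from them. Of these copies, POU5F1P3 had up to 16 counts, POU5F1P4 up to 10, POU5F1B up to 4, and NANOGP1 and NANOGP8 up to 2 counts in a library. A change in POU5F1 or NANOG was not detectable at this depth.

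**Figure D4:**
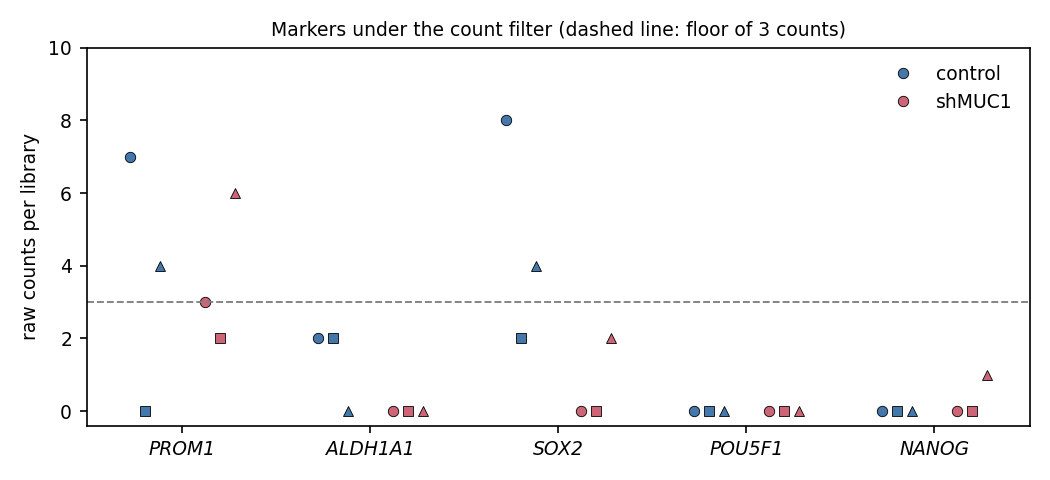
Raw counts per library of the 5 markers under the count filter (blue, control; red, shMUC1; dashed line, the floor of 3 counts). POU5F1 was at 0 in every library, no count exceeded 8, and the highest values were in PROM1 and SOX2.

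To place the markers among genes of related function, 8 companion lists were described by the number of members higher or lower at an edgeR adjusted p under 0.05. The median log2 fold change over all 15355 tested genes was 0.000583. Shares of each list are of its tested genes and stand beside 25.2% higher and 23.6% lower among all tested genes. No set test was run on these lists, and they overlap in a few genes.

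Other genes used as breast stem cell markers went both ways. Of 32 listed genes, 26 were tested, 7 were higher (26.9%), 11 were lower (42.3%) and 8 did not pass, with a median log2 fold change of -0.21. EPCAM, an epithelial adhesion molecule, was at 3.28 ± 0.674 CPM in control and rose to 14.3 ± 1.02 CPM, a log2 fold change of 2.12 (SE 0.14). SNAI2, which encodes the transcription factor Slug of basal mammary cells, rose by 1.14 on the log2 scale. NT5E, the ectonucleotidase CD73, went from 397 ± 13.2 to 177 ± 10.96 CPM, with a log2 fold change of -1.16 (SE 0.0378). B4GALNT1, an enzyme of ganglioside synthesis, had a log2 fold change of -0.84. ITGA6, the integrin chain CD49f used with EPCAM to sort mammary cells, rose by 0.80 and was named after its value was seen. When a mean of 50 counts was required, the median of the list was -0.10.

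The SOX family, to which SOX2 belongs, had 12 of 18 genes tested, with 2 higher (16.7%) and 5 lower (41.7%) and a median log2 fold change of -0.18. SOX15 was at 2.998 ± 1.19 CPM in control and rose to 7.85 ± 0.483 CPM, a log2 fold change of 1.37. With a fold change over 2 also required, 1 gene of the family was higher and 2 were lower, beside 5.95% of all tested genes in either direction. The 2 lower genes, at log2 fold changes of -2.05 and -2.23, averaged fewer than 100 counts, so the naming rule left them out. SOX9, a factor of mammary progenitors and the family member with the highest mean count among those tested, rose by 0.18. SOX4 and SOX12 had log2 fold changes of -0.26 and -0.22. SOX4 lost its call without control replicate 1 (log2 fold change -0.23, edgeR adjusted p 0.0565) and without shMUC1 replicate 1 (log2 fold change -0.18, edgeR adjusted p 0.112). When a mean of 50 counts was required, 3 genes of the family were lower.

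The wider pluripotency network was mostly silent: 22 of its 31 genes were not tested, and 10 of the 31 had 0 counts in all libraries. Of the 9 tested, 3 were higher (33.3%) and 1 was lower (11.1%), with a median log2 fold change of 0.11. KLF2, a Krüppel-like factor that can stand in for KLF4 in reprogramming, was at 74.9 ± 2.69 CPM in control and rose to 107 ± 3.63 CPM, a log2 fold change of 0.52. NACC1, a transcriptional cofactor, rose by 0.28. TBX3, a T-box factor, had a log2 fold change of -0.34 and lost its call without shMUC1 replicate 1 (log2 fold change -0.27, edgeR adjusted p 0.0511), which left 0 genes of the network lower.

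The other aldehyde dehydrogenases also went both ways. Of 17 family members beside ALDH1A1 and ALDH1A3, 13 were tested, 7 were higher (53.8%), 2 were lower (15.4%) and 4 did not pass, with a median log2 fold change of 0.17. ALDH4A1, a mitochondrial enzyme of proline breakdown, was at 9.76 ± 0.973 CPM in control and rose to 15.7 ± 1.38 CPM, a log2 fold change of 0.69, and ALDH6A1, of valine breakdown, rose by 0.56. ALDH1L2, a mitochondrial folate enzyme, rose by 0.41 and lost its call without control replicate 1 (log2 fold change 0.30, edgeR adjusted p 0.109) or control replicate 3 (log2 fold change 0.37, edgeR adjusted p 0.0571). ALDH16A1 had a log2 fold change of -0.64. ALDH4A1 and ALDH16A1 share exon bases with readthrough or overlapping genes on the same strand, so their counts are uncertain.

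Genes that carry or sense retinoic acid, the product of ALDH1A1 and ALDH1A3, had 17 of 24 members tested, with 6 higher (35.3%), 2 lower (11.8%) and 9 that did not pass, and a median log2 fold change of 0.10. The receptor genes RARA and RARG rose by 0.41 and 0.42 on the log2 scale, and TGM2, a transglutaminase gene that retinoic acid is known to induce, was at 7.89 ± 0.458 CPM in control and rose to 14.8 ± 1.77 CPM, a log2 fold change of 0.91. CYP26B1, which breaks retinoic acid down, had a log2 fold change of -0.19 and lost its call without shMUC1 replicate 3 (log2 fold change -0.13, edgeR adjusted p 0.0786), which left 1 gene of the list lower.

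Genes of the hyaluronan and CD44 axis showed equal numbers in each direction. Of 24 listed, 16 were tested, 3 were higher and 3 lower (18.75% each) and 10 did not pass, with a median log2 fold change of -0.02. HAS3, a hyaluronan synthase, was at 77.7 ± 3.205 CPM in control and rose to 120.05 ± 4.33 CPM, a log2 fold change of 0.63. The ezrin and moesin genes encode related linkers between CD44 and actin and moved in opposite directions. EZR rose from 937 ± 4.56 to 1379 ± 23.2 CPM, a log2 fold change of 0.56, and MSN went from 891 ± 2.42 to 617 ± 1.71 CPM, a log2 fold change of -0.53. MMP14, a membrane protease that cleaves CD44, had a log2 fold change of -0.40 at an edgeR adjusted p of 0.0355, a call that was lost under 6 of 14 alternatives. The splicing factor genes ESRP1 and ESRP2, which favour variant-exon CD44, were at a mean of 1 and 16 counts.

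Beside the rise in MYC, its partners and antagonists went both ways. All 27 genes of the MYC network were tested, 6 were higher (22.2%), 8 were lower (29.6%) and 13 did not pass, with a median log2 fold change of -0.04. MXI1 and MXD4, which compete with MYC for its partner MAX, had log2 fold changes of -0.73 and -0.69. MYCBP, a MYC-binding protein gene, rose by 0.82 on the log2 scale, but it shares 977 exon bases with the readthrough gene GJA9-MYCBP. PIM1, a kinase gene, had a log2 fold change of -0.40.

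Genes listed as targets of MYC also went both ways. All 40 were tested, 13 were higher (32.5%), 9 were lower (22.5%) and 18 did not pass, with a median log2 fold change of 0.04. The nucleotide synthesis genes PPAT and IMPDH2 rose by 0.36 and 0.34 on the log2 scale. LDHA, which encodes lactate dehydrogenase, went from 927 ± 11.1 to 528 ± 9.66 CPM, with a log2 fold change of -0.81 (SE 0.0286). EIF4A1 had a log2 fold change of -0.69, but it shares 1586 exon bases with SENP3-EIF4A1, so its count is uncertain.

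**Figure D5:**
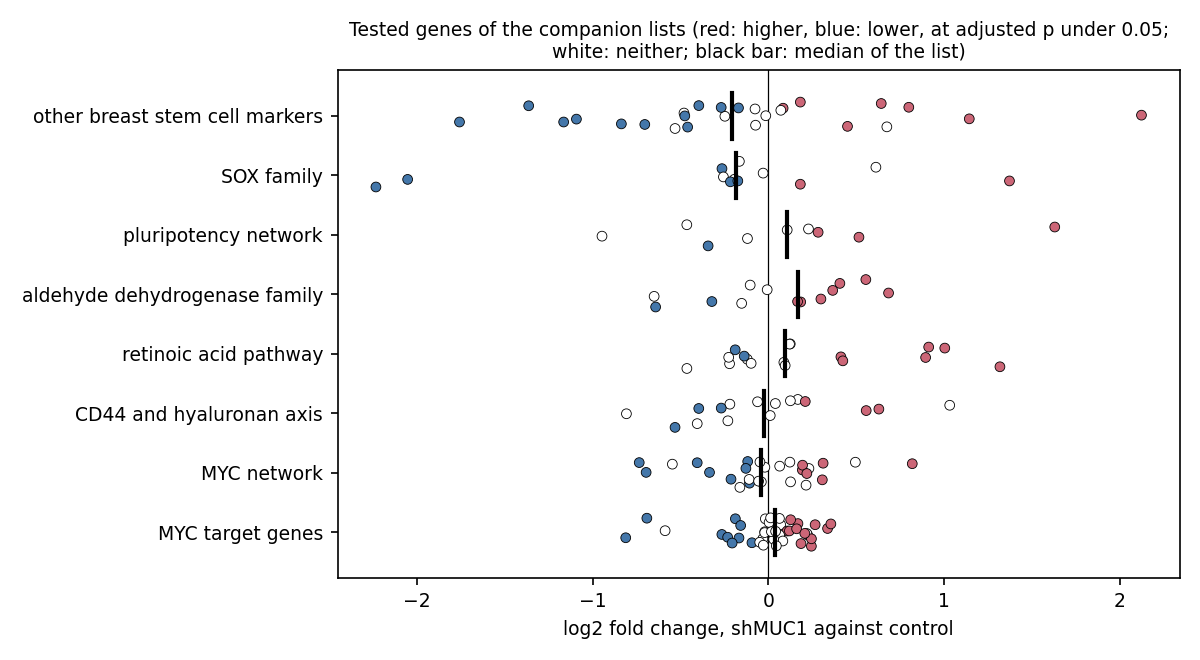
Log2 fold changes of the tested genes of the 8 companion lists (red, higher; blue, lower, at an adjusted p under 0.05; white, neither; black bar, median). Medians ran from -0.21 for other breast stem cell markers to 0.17 for the aldehyde dehydrogenase family, and every list held genes on both sides of 0.

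Markers of luminal epithelial cells moved with the group as well. Of 17 listed, 10 were tested, 7 were higher (70%) and 2 were lower (20%), with a median log2 fold change of 0.92. Among all tested genes, 25.2% were higher and 23.6% were lower. The summed level of the listed genes was 557 to 594 CPM in control and 1107 to 1152 CPM in shMUC1 libraries. That sum is mostly KRT8 and KRT18, which averaged 426 and 131 CPM in control and 824 and 266 CPM in shMUC1 cells. ELF3, KRT18 and KRT8 rose by 2.09, 1.02 and 0.95 on the log2 scale. ELF3 shares 664 exon bases with AL691482.3 in the same orientation, so its count is uncertain. FOXA1 rose by 0.37, a call that was lost without shMUC1 replicate 1 (log2 fold change 0.31, edgeR adjusted p 0.0931) or shMUC1 replicate 3 (log2 fold change 0.31, edgeR adjusted p 0.0849). The tight junction genes CLDN3 and CLDN4 were lower, with log2 fold changes of -1.31 and -0.70. CLDN4 lost its call without control replicate 1 or 3 or shMUC1 replicate 2 or 3, at log2 fold changes of -0.62, -0.65, -0.57 and -0.60 (edgeR adjusted p from 0.0931 to 0.115). KRT19, GRHL2 and RAB25 had a mean of at most 1 count, and GRHL2, OVOL1 and ST14 were at 0 in every library. Markers of leukocytes, endothelium and fibroblasts summed to 5.13 to 5.38 CPM in control and 6.18 to 9.08 CPM in shMUC1 libraries. Of the 10 listed, 3 were tested, 2 were higher (66.7%) and 1 was lower (33.3%), beside 25.2% higher and 23.6% lower among all tested genes. CD14 was the most abundant and rose by 1.08 on the log2 scale. The leukocyte gene PTPRC, with at most 24 counts in a library, rose by 1.59, a call that was lost without control replicate 1 (log2 fold change 1.23, edgeR adjusted p 0.0731) or shMUC1 replicate 2 (log2 fold change 1.398, edgeR adjusted p 0.0683). The endothelial gene PECAM1, with at most 40, had a log2 fold change of -1.94. CD3E, DCN and LUM were at 0 in every library. The part of these genes in the changes of CD44, KLF4 and MYC was not tested.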

How the data were processed

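RNA-seq libraries were made by the authors with a stranded mRNA kit from total RNA of cells in triplicate. The table the authors deposited holds raw read counts by gene symbol, 1 column per library. The submitters' processing notes name GRCh38.p7, CASAVA 1.8.2, STAR 2.7.9a, featureCounts and DESeq2 1.24.0, and whether counting used strand or both reads of a pair is not given in the sources used here. Of counts from 1 to 20, 68.8% to 70.5% were even, and counts halved were therefore tried.

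Differential expression was assessed in R 4.3.3 by edgeR 4.0.16 (two-sided quasi-likelihood F test). Genes were filtered by filterByExpr, libraries were scaled by TMM, group was the sole factor, and p-values were adjusted over 15355 genes by the Benjamini-Hochberg method. SE came from the F statistic. Totals ran from 18678307 to 27825546 counts, and 3 counts were taken as the floor. Intervals of fold changes include the spread between libraries, whereas the floor and the exact interval of the SOX2 ratio cover counting error only. Cultures were in triplicate per the labels, and p-values measure only the spread between these libraries. Within groups, counts of library pairs differed by more than sampling noise (chi-square over degrees of freedom, 2.79 to 5.55), with no sign of a library deposited again.

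Symbols were matched to GENCODE release 29 for lengths, positions and 3' UTRs (99.8% of rows). The members and lists were chosen with earlier results of these data known, and list membership came from general knowledge. Besides all members and MUC1, up to 4 genes a list were named: the largest absolute log2 fold changes at an adjusted p under 0.05, limited to genes that averaged 100 counts or more and whose groups did not overlap in CPM. The names of ITGA6, PROM2, ESRP1, ESRP2, KRT19, RAB25, CLDN3, CLDN4, PTPRC and PECAM1 were added after their values were seen. Opposite-strand exon overlaps make ITGA6, B4GALNT1, NACC1, ALDH1L2, ALDH6A1, ALDH16A1, RARA, TGM2, HAS3, EZR, ESRP2, MXI1, MYCBP, IMPDH2, PPAT, SOX4, SOX15, KRT8, KRT18, ELF3, FOXA1, ERBB2 and VIM uncertain if strand was not used. Alternatives were DESeq2 size factors, library totals, no filter, a minimum mean of 50 counts, limma-voom (limma 3.58.1), DESeq2 1.42.0, a replicate block, each library left out, counts halved and a fold change over 1.5.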

Additional observations from a re-analysis of the deposited data

How the results depend on the processing

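Each of the 14 alternative fits gave CD44, KLF4, MYC and MUC1 the same direction at an adjusted p under 0.05, with log2 fold changes of -0.19 to -0.15, 0.19 to 0.24, 0.39 to 0.45 and -1.02 to -0.75. Under a fold change over 1.5 in place of 2, 0 markers passed. CD24 ranged from -0.0132 to 0.0544 with one library left out and reversed without control replicate 3, at -0.0132, with no call under any alternative. ALDH1A3 ranged from 0.0768 to 0.18 with one library left out, and passed with no low-count filter (0.14) and with a replicate block (0.13), with adjusted p from 0.00844 to 0.306 over its alternatives. The cause was not tested. Replicate numbers did not pair the libraries, with correlations of same-numbered deviations of 0.0167, -0.0311 and -0.0359, and the block changed no other call among the markers.

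List medians moved in some fits. The other breast stem cell markers were at -0.13 with counts halved, at -0.0963 with a minimum mean of 50 counts, and from -0.22 to -0.13 with one library left out (-0.14 without control replicate 2, -0.13 without shMUC1 replicate 2). Without the low-count filter, so that sparse genes entered, the pluripotency network was at -0.11 and the CD44 and hyaluronan axis at -0.21. The latter ranged from -0.042 to 0.0522 with one library left out, highest without control replicate 3, and the SOX family from -0.24 to -0.0924 (without control replicates 2 and 3). Lower genes of the pluripotency network numbered 2 with counts halved and from 0 to 1 with one library left out, those of the retinoic acid pathway from 1 to 2, and those of the SOX family 3 with a minimum mean of 50 counts. Of 598 alternative values for 43 named genes of the lists, 577 kept their call, 21 lost it and 0 reversed. The ratio of CD44 to CD24 differed by -0.20 to -0.16 on the log2 scale with one library left out. A fit without the filter gave adjusted p of 0.99 for PROM1, 0.314 for ALDH1A1 and 0.624 for NANOG. Depth limits PROM1, ALDH1A1, SOX2, POU5F1 and NANOG.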
